A study of Mus musculus with 3 samples.

Results

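Carrier barcodes were Kupffer cell barcodes that also held transcripts of T and NK cells. A barcode was a carrier when 5 Kupffer genes (Clec4f, Cd5l, C1qa, C1qb and C1qc, together called K) made up at least 1% of its UMIs and it held at least 3 UMIs over a lymphocyte panel of 8 genes (Cd3d, Cd3e, Cd3g, Trbc1, Trbc2, Lck, Il2rb and Bcl11b). A UMI is a molecular tag that marks 1 captured transcript. Barcodes also needed at least 1000 UMIs, at least 300 genes and no more than 10% mitochondrial UMIs. The rule found 246 carriers among 9081 Kupffer barcodes (K at least 1%) and 9842 barcodes past the filters, with 83 in the chow library, 113 in the 3-day ethanol library and 50 in the 10-day ethanol library. The members were selected on their measured K and panel UMIs, so these levels describe the choice and test nothing.

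The study sequenced 1 male mouse per group, 8 weeks old, fed normal chow (day 0) or Lieber-DeCarli liquid diet, which contained ethanol at 5%, for 3 or 10 days. No genotype or strain is given in the labels used here. Cells outside the hepatocyte fraction were freed by perfusion and collagenase, sorted live as F4/80-high and CD11b-intermediate, and run as 1 droplet library per mouse with 3′ end counting. With 1 mouse per group no difference between diets could be tested. Every interval here is a 95% interval that covers counting error only, except the ranges of depth ratios.

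Kupffer cells, the liver's own macrophages, sit inside the sinusoids, the liver's capillaries, where they take up dying blood cells and particles. T cells, NK cells and innate lymphoid cells patrol the same vessels and touch them. The CD3 chains (Cd3d, Cd3e, Cd3g) carry the signal of the T cell receptor, Trbc1 and Trbc2 encode its beta chain constant regions, Lck is the kinase that starts its signal, Il2rb is a receptor chain for interleukins 2 and 15, and Bcl11b is a transcription factor of the T lineage. Clec4f is a lectin that among mouse liver cells marks Kupffer cells, Cd5l is a secreted macrophage protein, and C1qa, C1qb and C1qc encode the chains of complement C1q.

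The carrier with the most panel UMIs in each library is shown by its cell barcode, the oligonucleotide that marks all transcripts of 1 droplet, because each of these droplets held the transcripts of both lineages under 1 sequence.
chow: acagctatctgccagg
3-day ethanol: cttctctagtaggcca
10-day ethanol: acactgaagactcgga
The chow barcode held 17913 UMIs, with 23 of Clec4f, 52 of Cd5l, 5 of Cd3d, 6 of Cd3e, 12 of Cd3g and 11 of Nkg7. The 3-day barcode held 8953 UMIs, with 22 of Clec4f, 31 of Cd5l, 2 of Cd3d, 5 of Cd3g, 4 of Bcl11b and 11 of Ccl5. The 10-day barcode held 7751 UMIs, with 19 of Clec4f, 35 of Cd5l, 4 of Cd3d, 2 of Cd3g, 2 of Lck and 15 of Ccl5. In all of these the Kupffer genes outnumbered the lymphocyte panel, which summed to 36, 21 and 13 UMIs.

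Carriers were compared with 7985 Kupffer barcodes that held no panel UMI (panel-free; 2097 chow, 3466 3-day and 2422 10-day barcodes) and with 377 lymphocyte barcodes, which had at least 3 panel UMIs and K under 1% (127, 92 and 158). A further 850 Kupffer barcodes held 1 or 2 panel UMIs. The libraries summed to between 16538895 and 21650747 UMIs. Between 13 and 20 barcode sequences past the filters occurred in both libraries of a pair, 2 or 3 of them with a carrier, and no sequence was a carrier in more than 1 library.

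**Figure D1:**
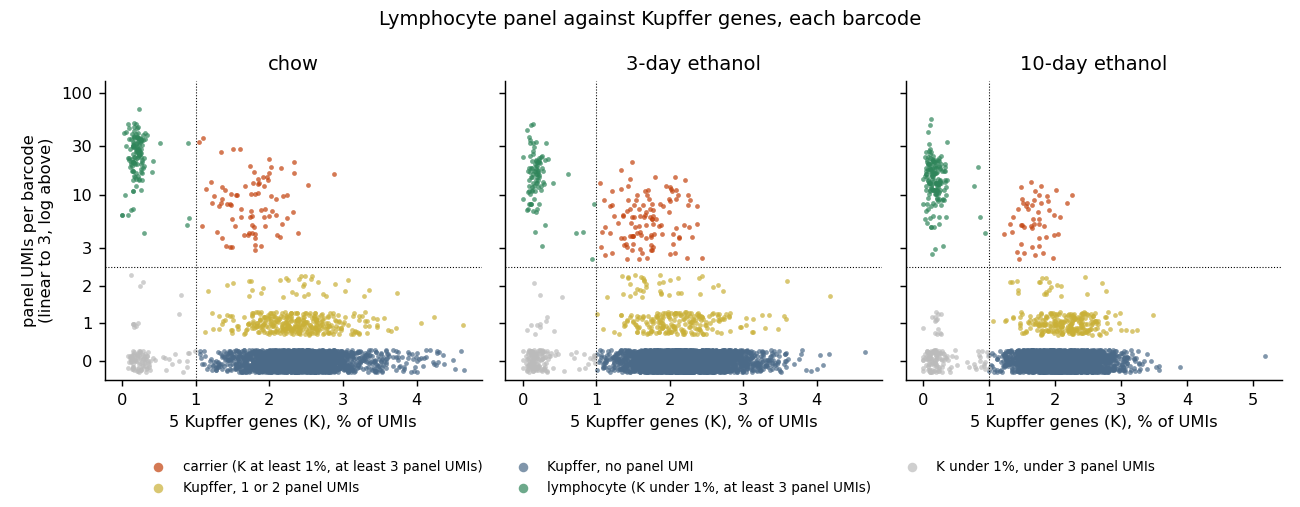
Each point is a barcode, with the percent of its UMIs from the 5 Kupffer genes on the x axis and its panel UMIs on the y axis (linear to 3, logarithmic above, with a small vertical jitter), in 1 panel per library. Carriers lie right of 1% and above 2 panel UMIs, at lower K than most panel-free Kupffer barcodes and with few barcodes between them and the lymphocyte barcodes.

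K and Clec4f belong to the rule, so their values in carriers describe the choice. Median K was 1.78% in chow carriers, 1.68% in 3-day carriers and 1.68% in 10-day carriers, against 2.38%, 2.18% and 2.10% in panel-free barcodes and 0.198%, 0.181% and 0.160% in lymphocyte barcodes. Clec4f had at least 1 UMI in every carrier. With each barcode thinned at random to 1500 UMIs, Clec4f was seen in 98.8% of 81 chow carriers (unthinned 100%), 97.3% of 111 3-day carriers and 96.0% of 50 10-day carriers. Panel-free barcodes gave 99.6%, 99.2% and 99.2%, and lymphocyte barcodes, which should lack the gene, 42.4%, 44.6% and 39.2%. Timd4, a receptor for dying cells on resident macrophages, was seen in 34 of 81, 47 of 111 and 15 of 50 thinned carriers (unthinned 92.8%, 80.5% and 72.0%), against 50.5%, 48.1% and 47.3% of panel-free barcodes and 8.00%, 4.35% and 4.58% of lymphocyte barcodes.

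The level of Kupffer genes outside the rule, as a share of UMIs, was lower in carriers than in panel-free barcodes. The 25 Kupffer genes outside the rule summed to 22000 CPM (UMIs of a gene for each 1000000 UMIs) in chow carriers, against 28996 in panel-free barcodes, a ratio of 0.759 (0.746 to 0.772). The ratio was 0.758 (0.746 to 0.771) at 3 days and 0.773 (0.754 to 0.792) at 10 days. Slc40a1, the iron exporter ferroportin, had 2584, 3272 and 3443 CPM in carriers, against 3323, 4227 and 4360 in panel-free barcodes. Vsig4, a complement receptor of resident macrophages, had 2658, 2808 and 2541 CPM in carriers and 3283, 3586 and 3517 in panel-free barcodes. All 25 genes were measured, and none was 2 times higher or lower in every library. Their median log2 ratios were −0.43, −0.40 and −0.37, beside −0.07, −0.06 and −0.08 over all 2903 genes measured.

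Per barcode, in contrast, carriers held at least as many Kupffer transcripts. The median sum of the 25 genes was 150, 123 and 120 UMIs per carrier, against 132, 100 and 104 per panel-free barcode. K genes, which belong to the rule and only describe it, gave 116, 86 and 78.5 UMIs per carrier, against 103, 65 and 63. The rule also favours deep barcodes, which raises any count per barcode, so both comparisons are partly set by it.

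Carriers were deeper than panel-free barcodes in each library. Their median UMI count was 6971 for chow, 5150 for 3-day and 4860 for 10-day carriers. Panel-free barcodes had 4456, 3035 and 3017, so the ratios were 1.56, 1.70 and 1.61. Lymphocyte barcodes had 3655, 2625 and 2462, and the panel-free and lymphocyte medians summed to 8111, 5660 and 5479, above the carrier median in each library. The ranges overlapped widely, but 83.1%, 89.4% and 82.0% of carriers lay above the panel-free median. Carriers also showed more genes, with medians of 2476, 2092 and 1983 against 1855, 1452 and 1458 in panel-free barcodes and 1410, 1141 and 1025 in lymphocyte barcodes. Needing 3 panel UMIs favours deep barcodes, so part of this depth is set by the rule. When the rule was applied after thinning each barcode to 1000 UMIs, which left 11, 16 and 3 carriers, the ratios of the original depths were 1.09 (0.320 to 2.01), 1.76 (0.928 to 2.39) and 1.43 (1.28 to 1.54).

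**Figure D2:**
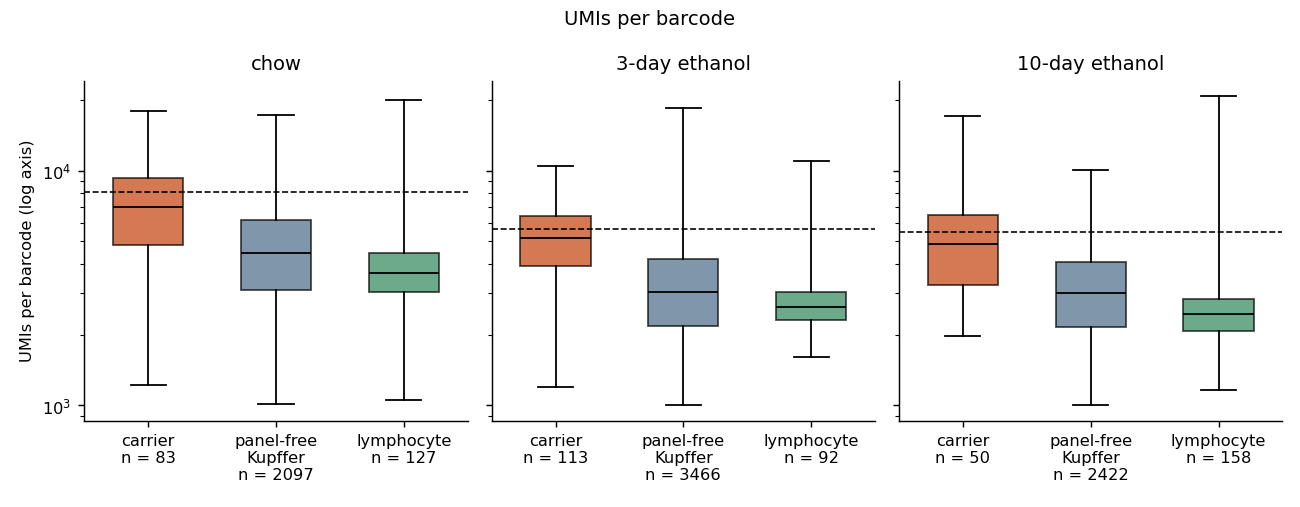
Boxes show the median and quartiles of UMIs per barcode (log axis) and whiskers the full range, for carriers, panel-free Kupffer barcodes and lymphocyte barcodes of each library. The dashed line is the sum of the panel-free and lymphocyte medians (8111, 5660 and 5479), and each carrier median lies under it and above both other medians.

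The share of Kupffer barcodes that were carriers was 3.27% in chow (2.61% to 4.04%, exact Clopper-Pearson), 2.96% at 3 days (2.44% to 3.55%) and 1.84% at 10 days (1.37% to 2.41%). The 10-day interval lay below those of chow and 3 days, but with 1 mouse each this compares libraries, not diets. The share was higher in deeper barcodes, apart from the 2 shallowest chow bands (0.976% and 0.781%). Under 2000 UMIs it was 0.976%, 0.409% and 0.187%, and at 8000 UMIs or more it was 10.7% of 270 chow barcodes, 27.0% of 37 3-day barcodes and 18.5% of 27 10-day barcodes. Between 4000 and 8000 UMIs it was 3.55% (2.61% to 4.71%), 6.26% (4.92% to 7.83%) and 3.41% (2.24% to 4.95%), so within this band the 3-day library was highest and chow and 10 days overlapped. The order of the libraries therefore changed with the depth compared.

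**Figure D3:**
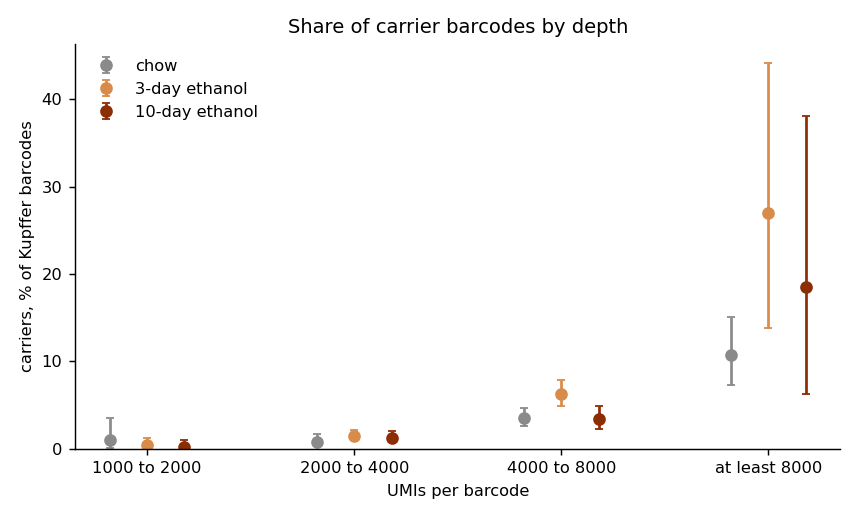
The y axis gives carriers as a percent of Kupffer barcodes in 4 bands of UMIs per barcode, with exact 95% binomial intervals, for chow, 3 days and 10 days. The share is under 1% in every library below 2000 UMIs and between 10.7% and 27.0% from 8000 UMIs on.

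The members near the limits show how sharply the rule cuts. Kupffer barcodes with exactly 3 panel UMIs (6, 22 and 9) held medians of 20.5, 14.5 and 14 UMIs over 80 further lymphocyte genes that the rule did not use. Those with exactly 2 (33, 38 and 22) held 3, 8 and 3, so at 3 days the excluded neighbours came closest to the carriers. On the other limit, 3 barcodes per library with at least 3 panel UMIs had K between 0.8% and 1%, and 4, 8 and 0 had K between 1% and 1.2%. A K between 1% and 2% was held by 65 of 83, 87 of 113 and 45 of 50 carriers, against 19.9%, 33.3% and 39.8% of panel-free barcodes. No carrier reached a K of 4%, which 1.00%, 0.144% and 0.0413% of panel-free barcodes did.

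The panel genes themselves are given as a description, since they chose the members. Cd3d (chromosome 9, 44981786 to 44987339, plus strand, GRCm38 in GENCODE vM21) had 252, 205 and 187 CPM in carriers of chow, 3 days and 10 days, no UMI in panel-free barcodes by the rule, and 853, 996 and 919 CPM in lymphocyte barcodes. Lck had 119, 141 and 156 CPM in carriers and 453, 462 and 364 in lymphocyte barcodes. Il2rb had 144, 130 and 133 CPM in carriers and 385, 339 and 412 in lymphocyte barcodes. Bcl11b had 75.4, 98.2 and 99.0 CPM in carriers and 171, 157 and 251 in lymphocyte barcodes. Cd3d thus stood at 0.295, 0.206 and 0.203 of its lymphocyte level and Bcl11b at 0.440, 0.624 and 0.394. Reads of Trbc1 and Trbc2 are hard to assign between these near-identical genes, so their separate levels are uncertain and the panel counts both.

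The panel genes seen in each barcode are also a description of the choice, with Trbc1 and Trbc2 counted as 2 genes. Carriers showed a median of 5, 4 and 4 different panel genes, against 6, 5 and 6 in lymphocyte barcodes, and at least 2 in each carrier. A CD3 chain was seen in 80 of 83, 96 of 113 and 42 of 50 carriers, and a constant region of the alpha beta receptor in 74, 102 and 46. Cd4, the helper T cell coreceptor, was seen in 18, 17 and 6 carriers, and Cd8a or Cd8b1, of the killer T cell coreceptor, in 9, 9 and 6. In lymphocyte barcodes the same coreceptors were seen in 17, 11 and 19 and in 16, 6 and 14.

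Lymphocyte genes outside the rule were also high in carriers. The 80 genes of the T cell, NK and innate lymphoid, effector and general lymphocyte lists summed to 4973, 4888 and 4270 CPM in carriers, against 388, 354 and 361 in panel-free barcodes and 19736, 22962 and 21716 in lymphocyte barcodes. Carriers thus held 25.2% (24.2% to 26.2%), 21.3% (20.4% to 22.2%) and 19.7% (18.5% to 20.9%) of the lymphocyte level. Barcodes of 10 to 100 UMIs, which hold mainly free RNA, had 1476, 1245 and 1396 CPM of these genes. A carrier held a median of 32, 22 and 20.5 such UMIs, a panel-free barcode 1 in each library, and a lymphocyte barcode 84, 65 and 54. The highest single carrier supplied at most 4.73% of a library's sum, so the sum did not rest on 1 barcode. Carriers were chosen for panel UMIs and panel-free barcodes for having none, so genes expressed with the panel are not independent of the rule. These levels are therefore given as a description.

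Of 2903 genes at 50 CPM or more in carriers or panel-free barcodes of every library, 42 (1.45%) were at least 2 times higher in carriers in all 3 libraries and 3 (0.103%) at least 2 times lower. Among the 80 lymphocyte genes 20 were measured, and 18 of these were among the 42. That count includes 4 of 5 measured T cell genes, 3 of 3 effector genes, 10 of 10 general lymphocyte genes and 1 of 2 NK and innate lymphoid genes. Genes measured through the carriers alone had to be high in them, so the counts describe the list and support nothing further. The 42 also held genes of no fixed list, such as Tmsb10, an actin-binding peptide (2376, 1699 and 1798 CPM in carriers against 168, 122 and 135 in panel-free barcodes), and Bcl2, a survival factor (95.6, 124 and 122 against 5.03, 3.49 and 5.18). Both were chosen after their values were seen.

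Txk, a T and NK cell kinase, tied with Skap1 for first of the 15 genes named by rule, by its lowest ratio over the libraries. Its level was 92.2, 102 and 110 CPM in carriers, 0.604, 1.31 and 0.757 in panel-free barcodes and 288, 370 and 335 in lymphocyte barcodes. Carriers exceeded panel-free barcodes 153-fold (65.9 to 434) in chow, 77.7-fold at 3 days and 146-fold at 10 days. The 15 genes were picked by this same ratio, at 50 CPM or more in carriers. Their ratios and intervals therefore describe the choice and test nothing. Skap1, an adaptor of T cell adhesion, had 97.2, 81.3 and 91.4 CPM in carriers against 1.11, 1.05 and 1.14 in panel-free barcodes. Cd28, the costimulatory receptor, had 57.0, 66.1 and 95.2 CPM in carriers against 0.503, 0.959 and 0.757. Trac, the constant region of the receptor's alpha chain, had 161, 139 and 152 CPM in carriers against 4.03, 1.48 and 3.53. Thy1, a surface protein of mouse T cells, had 136, 151 and 110 CPM in carriers against 2.21, 2.09 and 3.53.

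Cxcr6, a chemokine receptor that keeps lymphocytes in the liver, had 166, 215 and 187 CPM in carriers, 1.81, 3.23 and 1.51 in panel-free barcodes and 757, 928 and 714 in lymphocyte barcodes. In barcodes thinned to 1500 UMIs, Cxcr6 was seen in 16 of 81, 29 of 111 and 10 of 50 carriers (unthinned 63.9%, 66.4% and 54.0%), against 5 of 1998, 12 of 3164 and 5 of 2209 panel-free barcodes. Ltb, the lymphotoxin beta subunit, had 178, 241 and 171 CPM in carriers against 7.65, 4.88 and 7.07 in panel-free barcodes. Gimap3, Gimap7, Gimap5 and Gimap1, GTPases of lymphocyte survival, had ratios between 21.4 and 63.1. Ms4a4b, Ablim1 and Ptprcap had ratios between 23.2 and 90.5, and Nkg7, the remaining gene, between 22.0 and 48.5. Each of the 15 lay between the panel-free and the lymphocyte level in every library.

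**Figure D4:**
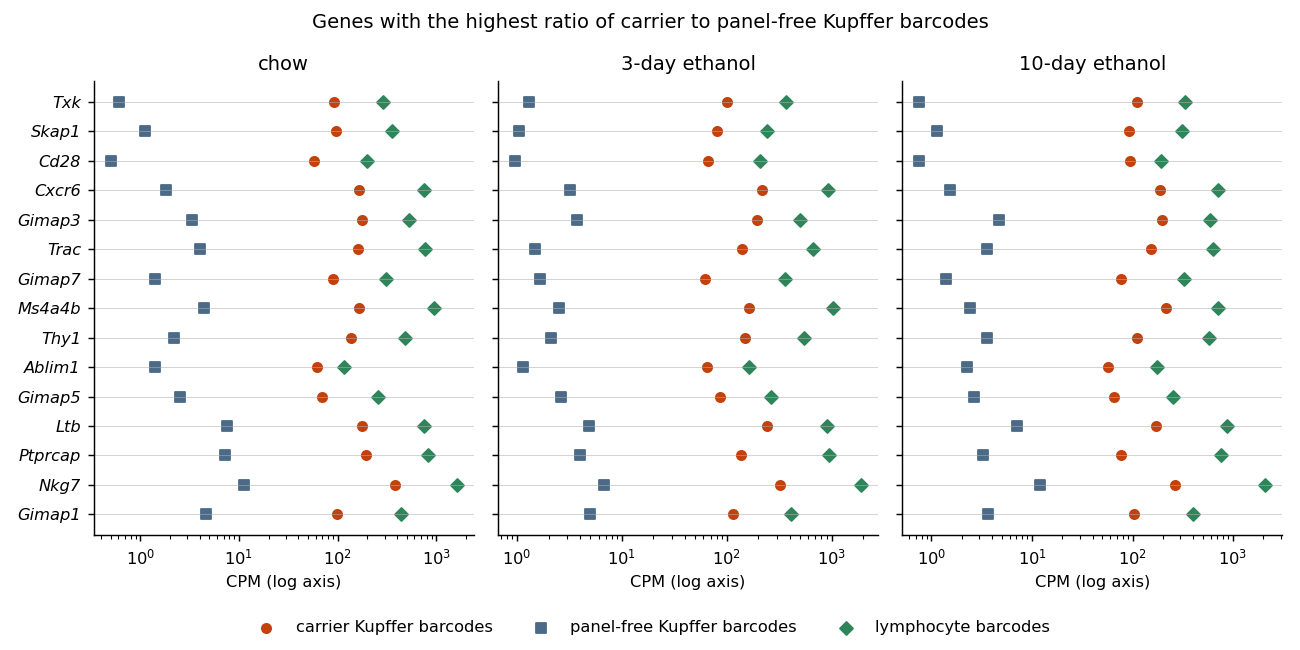
Each row is 1 of the 15 genes with the highest ratio of carriers to panel-free Kupffer barcodes, and the x axis is its level in CPM (log axis) in carriers, panel-free Kupffer barcodes and lymphocyte barcodes of each library. The carrier point lies between the other points for each gene and library, as for Txk at 92.2, 0.604 and 288 CPM in chow.

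Cytotoxic and chemokine genes were present but lower relative to T cell genes than in lymphocyte barcodes. Nkg7, a granule protein of killer cells, had 384, 325 and 267 CPM in carriers, against 11.3, 6.71 and 12.1 in panel-free barcodes and 1610, 1903 and 2087 in lymphocyte barcodes. Ccl5, a chemokine of effector lymphocytes, had 719, 654 and 632 CPM in carriers, 39.7, 25.9 and 44.4 in panel-free barcodes and 3764, 5062 and 5019 in lymphocyte barcodes. For each UMI of the 24 T cell genes outside the rule, carriers held 1.28, 1.22 and 1.18 effector UMIs, while lymphocyte barcodes held 1.77, 2.49 and 2.5 and free RNA 1.60, 1.75 and 2.03. Panel-free barcodes held 0.688, 0.473 and 0.774. Lymphocyte barcodes were thus above carriers, and panel-free barcodes below them, in each library. The gap to lymphocyte barcodes was wider in both ethanol libraries than in chow. The panel is mostly of T cell genes, and its median was 8, 6 and 6 UMIs in carriers against 26, 16 and 14 in lymphocyte barcodes. The rule may thus favour T cell genes in carriers, so these ratios are given as a description.

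NK markers were seen in a smaller share of carriers than of lymphocyte barcodes. Barcodes with at least 2 UMIs of T cell genes (here with the CD3 chains, Trbc1 and Trbc2 of the rule) and fewer of the NK and innate lymphoid list made up 26 of 83, 46 of 113 and 22 of 50 carriers, against 12 of 127, 11 of 92 and 25 of 158 lymphocyte barcodes. At least 2 of both were held by 57, 66 and 28 carriers and by 115, 81 and 133 lymphocyte barcodes. NK only barcodes numbered 0 among carriers and 0 among lymphocyte barcodes. Since 5 of the 8 panel genes count on the T cell side, the rule all but fixes this, and the split is given as a description. Lymphocyte UMIs per barcode differed between these groups, with medians of 32, 22 and 20.5 against 84, 65 and 54, so the lists were not read at equal depth. Ncr1, Klrb1c or Eomes, genes of NK cells and innate lymphoid cells, were seen in 16, 19 and 5 carriers and in 58, 44 and 60 lymphocyte barcodes.

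The carrier level was set out gene by gene as the percent of the way from the panel-free level to the lymphocyte level. This used 80 genes, partly others than the 80 listed ones, that were at least 5 times higher in lymphocyte than in panel-free barcodes and at 100 CPM or more there in each library. The measure and the gene set were chosen after values had been seen. The median gene stood at 23.6% in chow, 21.4% at 3 days and 22.4% at 10 days. The spread around it was wide, with quartiles of 18.9% and 28.3% in chow, 16.3% and 29.7% at 3 days and 14.2% and 31.6% at 10 days. Genes kept part of their order between libraries, with Spearman correlations across the 80 genes of 0.64 (3 days and chow), 0.44 (10 days and chow) and 0.63 (10 days and 3 days), and genes are not independent replicates.

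Genes with long transcripts stood higher on this scale than genes with short ones. The Spearman correlation of the median share with the longest annotated transcript was 0.61 across the 80 genes, and 0.49, 0.57 and 0.60 within chow, 3 days and 10 days. The median was 15.8% over 18 genes with transcripts under 1000 bases, 20.1% over 22 genes of 1000 to 2000 bases, 27.5% over 24 genes of 2000 to 4000 bases and 31.6% over 16 genes of 4000 bases or more. The first and last of these groups hold under 20 genes each, and the order of the middle groups is the same. Satb1, a chromatin organiser of T cells, had 111, 146 and 107 CPM in carriers, 13.3, 17.3 and 7.70 in panel-free barcodes and 206, 212 and 242 in lymphocyte barcodes. Ahnak, a very large scaffold protein, had 83.8, 107 and 122 CPM in carriers, 5.94, 6.10 and 4.92 in panel-free barcodes and 217, 202 and 278 in lymphocyte barcodes. The chemokine Xcl1, in contrast, had 48.6, 52.5 and 30.5 CPM in carriers, 1.71, 0.872 and 1.14 in panel-free barcodes and 367, 479 and 373 in lymphocyte barcodes. All libraries share the 3′ chemistry, and why length goes with the share was not tested.

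**Figure D5:**
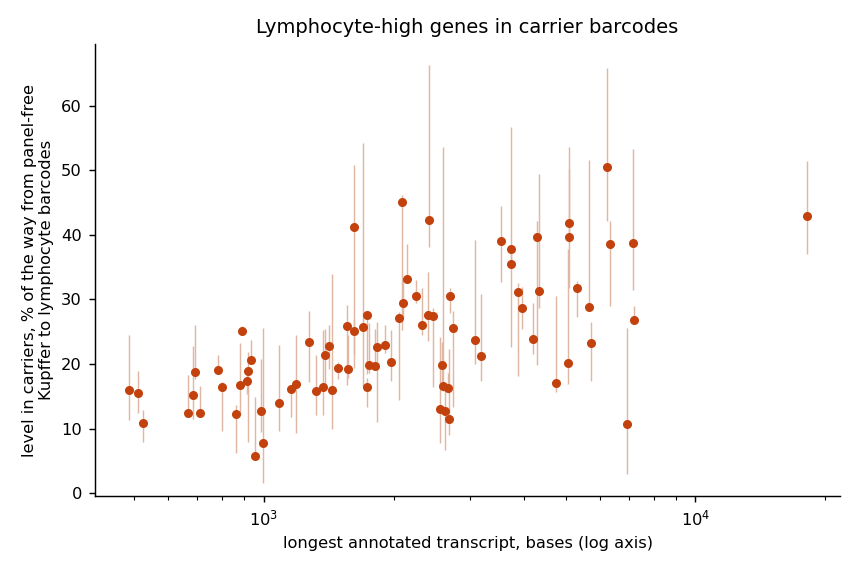
Each point is 1 of 80 lymphocyte-high genes, with its longest annotated transcript on the x axis (bases, log axis) and, on the y axis, the carrier level as the percent of the way from the panel-free to the lymphocyte level. Points are medians over the 3 libraries and bars run from the lowest to the highest library, and the points tend upward with length (Spearman correlation 0.61).

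On the Kupffer side the relation with length was weaker. Over 234 genes at least 5 times higher in panel-free than in lymphocyte barcodes, carriers stood at medians of 75.3%, 74.7% and 73.5% of the way from the lymphocyte to the panel-free level. The correlation of the median share with transcript length was 0.20 over the 232 of these genes with a length. It was 0.27, 0.14 and 0.02 within chow, 3 days and 10 days. These genes hardly kept their order between libraries, with correlations of 0.15 (3 days and chow), 0.05 (10 days and chow) and −0.04 (10 days and 3 days). With shares this unstable a relation with length could hardly show, so its absence on the Kupffer side cannot be read from these values. Taken on summed lists, the lymphocyte share was 23.7%, 20.1% and 18.3% and the Kupffer share 73.5%, 73.3% and 75.2%, which sum to 97.2%, 93.4% and 93.5%. The lymphocyte median UMI count was 45.1%, 46.4% and 44.9% of the summed medians of both reference types, above the lymphocyte share of carriers in each library. Ribosomal protein genes, at medians of 17.5%, 17.3% and 14.8% of UMIs in carriers, also lay between panel-free barcodes (12.8%, 12.6% and 10.4%) and lymphocyte barcodes (30.9%, 31.6% and 32.7%).

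Part of the genes in the uptake, interferon gamma, contact and dissociation lists were measured. Their counts stand beside the 1.45% of all genes 2 times higher and 0.103% lower. In a list of 22 genes for the uptake of dying cells 14 were measured, and none was 2 times higher or lower in every library, with median log2 ratios of −0.29, −0.31 and −0.39. Summed over the 19 of its genes outside the rule, carriers held 0.846 (0.813 to 0.879), 0.840 (0.809 to 0.872) and 0.772 (0.729 to 0.816) times the panel-free level. Of 21 interferon gamma response genes 13 were measured and none passed, with medians of −0.13, −0.11 and −0.05. Their sum in carriers was 0.844 (0.825 to 0.864), 0.866 (0.843 to 0.889) and 0.775 (0.742 to 0.809) times the panel-free sum. Cd74, a chaperone of class II molecules, had 5932, 4590 and 3596 CPM in carriers, 7502, 5474 and 4890 in panel-free barcodes and 4299, 483 and 1135 in lymphocyte barcodes. Of 21 genes of lymphocyte contact 11 were measured, and Ccl5, which the effector list also holds, alone passed. The sum of this list, Ccl5 included, was 1.03 (1.01 to 1.06), 1.02 (0.996 to 1.05) and 1.07 (1.03 to 1.11) times the panel-free sum. Of 16 genes induced by tissue dissociation 9 were measured, and none passed.

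A further comparison looked for genes above both the panel-free and the lymphocyte level. Of 2150 genes with at least 20 UMIs in carriers of each library, 102 (4.74%) were above both in every library and 28 (1.30%) below both. Genes entered through their carrier UMIs alone, which favours genes high in carriers and drops genes low there. The contrast of 102 and 28 is thus partly set by the filter and is given as a description. For the genes above both, the size of the excess was small. Myh9, the heavy chain of nonmuscle myosin, led by the lowest ratio, with 164, 166 and 171 CPM in carriers, 120, 122 and 126 in panel-free barcodes and 103, 110 and 132 in lymphocyte barcodes. The other 9 genes named by the rule were Zdhhc18, Cenpa, Ube2z, Aebp2, Tlk1, Celf1, Rbm22, Wipf1 and Crebbp. Among them Cenpa, a centromere protein of dividing cells, drew 50% of its 20 UMIs at 10 days from 1 carrier. Against only the panel-free barcodes at least as deep as the lower quartile of carriers, an alternative chosen after seeing the data, 228 genes were above both in place of 102.

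Proliferation genes summed to 449, 598 and 838 CPM in carriers, against 266, 392 and 332 in panel-free barcodes and 850, 2057 and 741 in lymphocyte barcodes. One carrier supplied 55.5% of the 10-day sum and 16.4% of the chow and the 3-day sum each. The 1 gene measured of 15 in the files was Hmgb2, a chromatin protein of dividing cells, with 240, 396 and 366 CPM in carriers and 123, 195 and 152 in panel-free barcodes. It was not 2 times higher in every library.

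The genes that were lower in carriers were those of red cells. Hbb-bs, a beta globin gene, had 11.7, 15.2 and 15.2 CPM in carriers and 149, 189 and 167 in panel-free barcodes, and Hba-a1 and Hba-a2 were the others. Among panel-free barcodes the 10 highest held 89.3%, 80.2% and 90.2% of all Hbb-bs UMIs, with up to 627, 1091 and 637 in 1 barcode. A UMI of Hbb-bs was seen in 8.43%, 7.96% and 8.00% of carriers and in 7.68%, 9.52% and 5.49% of panel-free barcodes, so the shares were close while the level in panel-free barcodes rested on a few of them. Below globin, the remaining genes named by the rule fell short of 2-fold in at least 1 library. Hmox1, the haem-degrading enzyme, had 1004, 1635 and 1653 CPM in carriers and 1596, 2455 and 2753 in panel-free barcodes, and Ear2, an eosinophil-type ribonuclease, 193, 203 and 160 against 292, 332 and 264.

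Transcripts of other cell types were not raised in the same way. Genes of B and plasma cells summed to 48.6, 40.7 and 34.3 CPM in carriers and 63.2, 32.4 and 25.9 in panel-free barcodes, and none of the 12 reached the level minimum in every library. Endothelial genes summed to 233, 110 and 270 CPM in carriers, 154, 145 and 181 in panel-free barcodes and 76.9, 116 and 419 in lymphocyte barcodes. One carrier held 40.3% of the chow sum and one 39.4% of the 10-day sum. Hepatocyte genes summed to 865, 979 and 796 CPM in carriers, against 1159, 1260 and 1035 in panel-free barcodes. Lymphocyte barcodes of chow held 1502 CPM of B and plasma cell genes, nearly all from Jchain, an immunoglobulin joining chain, at 1362 CPM, against 0 and 8.82 CPM of the list at 3 and 10 days.

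Kupffer barcodes carrying B cell, endothelial or dendritic cell transcripts were counted in the same way, with at least 3 UMIs over 8 genes of each type. There were 83, 113 and 50 carriers of lymphocyte genes, 16, 6 and 1 of B cell genes and 40, 27 and 29 of endothelial genes. Set against free barcodes of the same type (K under 1%), these came to 65.4, 123 and 31.6 per 100 lymphocyte barcodes, 107, 50.0 and 7.69 per 100 B cell barcodes and 97.6, 28.1 and 43.9 per 100 endothelial barcodes. Relative to the product of the Kupffer and the free lymphocyte share of all barcodes, carriers made up 0.713, 1.31 and 0.350. The same quotient was 1.16, 0.532 and 0.0851 for B cell genes and 1.06, 0.299 and 0.486 for endothelial genes. The share of droplets with 2 cells was not measured, so the quotients have no expected value. They only set the types beside each other. Dendritic cell genes were carried by 133, 142 and 122 Kupffer barcodes, or 512, 546 and 938 per 100 free barcodes, with quotients of 5.58, 5.81 and 10.4. Panel-free barcodes held 156, 176 and 202 CPM of these genes, against 24.5 to 95.6 CPM of the B cell and endothelial genes. In these quotients 3 days was highest for lymphocyte genes, chow for B cell and endothelial genes and 10 days for dendritic cell genes. Free barcodes were few, at 15, 12 and 13 for B cells and 26, 26 and 13 for dendritic cells, so this order is uncertain. As a share of Kupffer barcodes of all depths, chow was highest for each type. It stood at 3.27% for lymphocyte, 0.631% for B cell, 1.58% for endothelial and 5.24% for dendritic cell genes. Chow Kupffer barcodes were also deeper, with a median of 4675 UMIs against 3117 and 3080, and the 3-UMI rule favours deep barcodes. Between 4000 and 8000 UMIs the lymphocyte share was highest at 3 days, and the other types were not compared by depth.

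Doublet scores did not set the carriers apart evenly. The caller (Scrublet) marked no barcode as a doublet by its own threshold in any library, so its calls could not be used. Of the 4% of barcodes with the highest scores, carriers made up 5 of 110, 4 of 162 and 10 of 120. This was 5 of 83, 4 of 113 and 10 of 50 carriers, against 3.96%, 4.10% and 3.80% of panel-free barcodes. The median carrier stood at percentile 59.5, 51.3 and 80.5 of the scores in its library. Whether 2 cells in a droplet, cells attached to each other, uptake of lymphocyte material or the Kupffer cells' own transcription gave the lymphocyte transcripts was not tested.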

How the data were processed

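Single-cell libraries of sorted mouse liver macrophages (chow, 3-day and 10-day ethanol, 1 mouse each) were analysed here. The authors deposited raw UMI counts per gene for all barcodes, made with Cell Ranger 2.2.0 on GRCm38 (mm10) per the submitters' processing notes. The annotation release is not given in the sources used here.

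Counts were summed over the barcodes of each kind in each library and divided by their UMIs (CPM). Ratios of levels have exact conditional binomial intervals and shares Clopper-Pearson intervals, at 95%. Ranges of depth ratios came from ranked carrier depths divided by the panel-free median. Log2 ratios in list medians used a pseudocount of 1 CPM. Depth was equalised by thinning to 1500 UMIs where said. Scrublet in scanpy 1.11.5 gave doublet scores, and no barcode was removed by them in the main results. Coordinates and transcript lengths came from GENCODE vM21, which held 28339 of 28692 gene IDs. The gene calling was checked on simulated data.

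Members and lists were chosen with earlier results of these data known. Named genes were the panel and K genes, the 15 highest and 10 lowest by their weakest ratio over the libraries at 50 CPM or more (mitochondrial, ribosomal and unnamed predicted genes left out), the 10 highest above both references, and the highest members of each list. Alternatives changed the panel, K, depth and mitochondrial limits, the panel, the scaling and the depth. Libraries had no replicates, so no test was made.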

Additional observations from a re-analysis of the deposited data

How the results depend on the processing

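By point value, the depth ratio, the lymphocyte level and the Kupffer level kept their direction under each alternative that gave a value. The range of the depth ratio spanned equal depth in chow and at 3 days after thinning, and at 10 days under a 5% mitochondrial limit. The interval of the 10-day Kupffer ratio spanned equal levels after thinning. Sizes moved with the limits of the rule (values in the order chow, 3 days, 10 days). The T and NK split, the shares per gene, transcript length, carriers of other types and doublet scores were not recomputed. The share of carriers among Kupffer barcodes was 4.57%, 3.95% and 2.64% at 2 panel UMIs or more and 2.60%, 1.86% and 1.28% at 5 or more. It was 0.912%, 1.05% and 0.308% with K at 2% or more, 0.435%, 0.422% and 0.111% with barcodes thinned to 1000 UMIs, and 3.56% at 3 days with at least 2000 UMIs. By point value the 10-day library stayed lowest under each of these. Its interval lay clear of both others only at 2 panel UMIs or more. The 3-day value passed that of chow at the 2% K limit and at 2000 UMIs, with overlapping intervals. The ratio of carrier to panel-free depth was 1.91 in chow and 1.94 at 10 days with K at 2% or more, 1.90 at 3 days with 5 panel UMIs and 1.09 in chow after thinning.

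Lymphocyte genes in carriers stood at 19.9%, 18.9% and 17.5% of the lymphocyte level with 2 panel UMIs, at 26.6% and 23.1% in chow and at 3 days with 5, and at 20.6%, 19.1% and 23.2% with K at 2% or more. They stood at 26.5% and 23.3% in chow and at 3 days under a 5% mitochondrial limit, at 30.9% and 22.7% there after thinning, at 21.3% at 10 days with 2000 UMIs and at 18.2% at 10 days without the highest doublet scores. Kupffer genes had ratios of 0.796, 0.786 and 0.811 with 2 panel UMIs, 0.741, 0.715 and 0.753 with 5, and 0.583, 0.716 and 0.826 after thinning. In chow and at 3 days they were 0.812 and 0.778 with K at 2% and 0.743 and 0.694 under the mitochondrial limit, with 0.771 at 3 days for 2000 UMIs and 0.775 in chow without the highest doublet scores.

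Without a level minimum, 412 of 9673 genes were 2 times higher and 15 lower, in place of 42 and 3 of 2903. All 42 and all 3 were among them. Against deep panel-free barcodes, chosen after seeing the data, 228 genes in place of 102 were above both references. A K minimum of 4% left no carrier, so it gave no value. Thinning left 3 carriers at 10 days, and a K of 2% left 5. No paired analysis was possible because each group had 1 library, and for the same reason no library could be left out. The causes of these shifts were not tested beyond what each limit removes.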
